A study of Mus musculus with 8 samples.

Results

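RNA levels of 33 genes of the piRNA pathway and its Tudor domain proteins were followed in whole testes after deletion of Spdya, the gene of a telomere-bound activator of CDK2, in mouse pachytene spermatocytes. The members were all rows of the deposited gene table that carried one of 33 listed gene symbols and were annotated as protein-coding, and all 33 were found among the 54532 genes of the table. They were divided by known role into a pachytene branch of 8 genes, a prenatal branch of 7, a shared machinery of 14, and 4 broadly expressed Tudor or arginine methylation genes. In all 33 members the level exceeded 1 FPKM on average in both groups, so every member was among the 12141 protein-coding genes tested.

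PIWI proteins bind piRNAs, short RNAs of the germ line, and use them to find and cleave transposon and other transcripts. In prenatal male germ cells PIWIL2 cleaves transposon RNA and PIWIL4 carries piRNAs into the nucleus, where they direct DNA methylation of transposons. Pachytene spermatocytes make a much larger piRNA population from long precursor transcripts, under the control of the transcription factors MYBL1 and TCFL5. These piRNAs are loaded mainly onto PIWIL1 and PIWIL2. Tudor domain proteins recognise methylated arginines in the tails of PIWI proteins and gather the pathway in granules next to mitochondria and, later, in the chromatoid body.

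The control group was 4 Sync-Spdya fl/fl mice, each giving 1 library, and the deleted group 4 Sync-Spdya cKO mice, again with a library each. Both groups had floxed Spdya alleles, both had spermatogenesis synchronized by blocking retinoic acid synthesis and then giving retinoic acid (RA) at postnatal day 9, both received tamoxifen (20 mg per kg) at RA7.5 and RA8.5 by the labels, and both were collected at RA11.5, at about postnatal day 20.5. The cKO mice also carried Ddx4-CreERT2, which removes exon 2 of Spdya in germ cells once tamoxifen is given. The Cre cassette was inserted into exon 2 of Ddx4, itself one of the 33 genes, so the Ddx4 locus differed between the groups by design. Whole testis holds somatic as well as germ cells, and in such bulk samples fewer cells of a type and less RNA per cell cannot be told apart.

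The libraries held 13978342 to 19583091 fragments on genes, and the members had between 135 and 18303 fragments each per library, which puts counting error at 8.61% or less of a value. Spdya had 20.8, 21.0, 23.8 and 19.7 FPKM in control replicates 1 to 4 and 30.5, 22.2, 26.1 and 17.7 FPKM in cKO replicates 1 to 4. Its level over the whole gene therefore did not check the labels, and the groups are the libraries as labelled. Control replicate 1 stood apart, with 0.464% of its fragments on mitochondrial genes against 2.20% to 3.74% in the other 7 libraries. FPKM, the fragments per kilobase of a gene, relative to a scaled library size, is the scale of every level below.

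The pathway was abundant at this stage. The mean over the 8 libraries ranged from 3.02 FPKM for Piwil4 to 212 FPKM for Ddx4, and 7 members lay above 100 FPKM, 20 between 10 and 100, and 6 below 10. By mean level 15 of the 33 were in the top 10% of the genes tested, and the median member stood at percentile 85.1. The 7 most abundant were the helicase gene Ddx4, Mael, Piwil1, Piwil2, Fkbp6, Tdrd1 and Adad2. The lowest were both from the nuclear arm of the prenatal branch, Piwil4 at percentile 17.3 and Spocd1 at percentile 29.8.

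**Figure D1:**
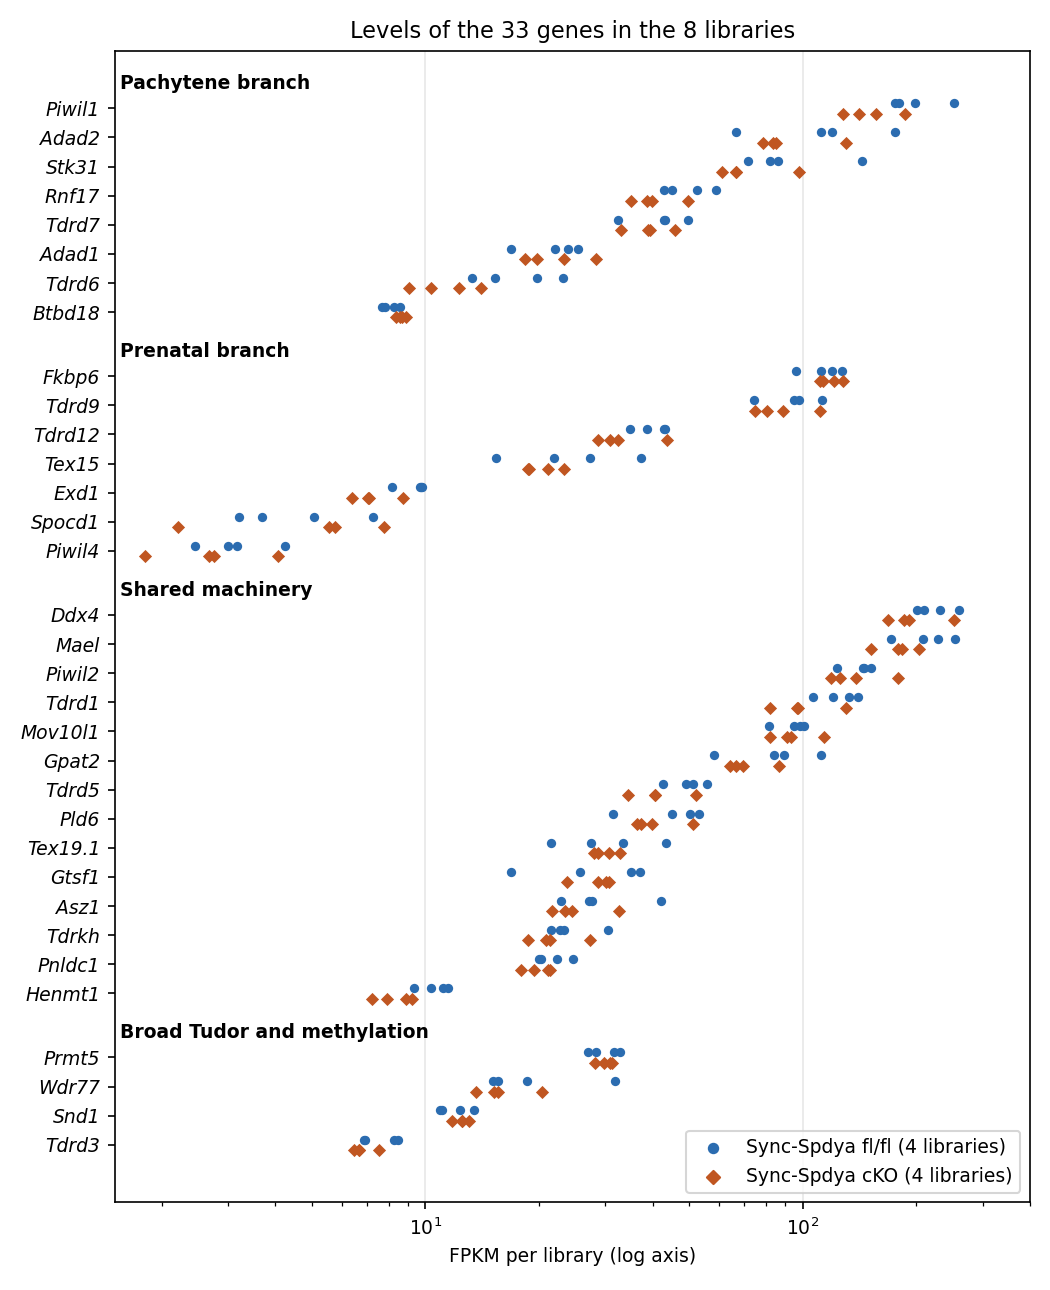
Levels of the 33 genes by branch, on a logarithmic axis in FPKM, with 1 circle per Sync-Spdya fl/fl library and 1 diamond per Sync-Spdya cKO library. Levels ran from 1.80 FPKM for Piwil4 to 259.5 FPKM for Ddx4, and in most rows the symbols of both groups overlap.

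The promoters of the members were read for the letters of 2 regulators of pachytene genes: AACNGNC, the core bound by MYB factors, and CACGTG, an E-box of the kind bound by TCFL5. RefSeq promoters on GRCm38.p6 matched 26 of the 33 symbols. Piwil2, Tdrd6, Pnldc1, Rnf17, Tex15, Spocd1 and Adad1 were not matched. In the 250 bases before the start, on either strand, AACNGNC was present in 11 of the 26 (42.3%) and in 27.7% of all 32851 promoters of the table. CACGTG was present in 9 of the 26 (34.6%) and in 6.02% of all promoters, or 8.78% of the promoters of genes tested. Both were present in Piwil1, Mael, Mov10l1, Stk31 and Tdrd9 (19.23%, against 1.70% of all promoters), which belong to 3 branches. By branch, CACGTG was found in 2 of 5 pachytene, 2 of 5 prenatal, 5 of 12 shared and 0 of 4 broad members with a promoter. A match of letters is a description and not a binding site, and these motifs were chosen after the expression values were seen.

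The upstream stretches of 5 members are shown: Piwil1, Mael and Mov10l1 because each holds both motifs, and Henmt1 and Piwil4, which hold neither, as the member whose groups did not overlap and as the prenatal PIWI gene. They lie at chr5:128735996-128736245 (plus strand), chr1:166238745-166238994 (minus), chr15:88982744-88982993 (plus), chr3:108940307-108940556 (plus) and chr9:14740673-14740922 (minus) on GRCm38.p6, and are printed 5′ to 3′ in the direction of the gene with every AACNGNC and CACGTG, on either strand, in capitals.
Piwil1: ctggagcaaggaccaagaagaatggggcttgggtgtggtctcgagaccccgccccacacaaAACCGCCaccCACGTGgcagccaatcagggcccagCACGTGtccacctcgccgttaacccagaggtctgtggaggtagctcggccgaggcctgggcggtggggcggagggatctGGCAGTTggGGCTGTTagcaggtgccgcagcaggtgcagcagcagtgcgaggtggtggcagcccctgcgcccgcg
Mael: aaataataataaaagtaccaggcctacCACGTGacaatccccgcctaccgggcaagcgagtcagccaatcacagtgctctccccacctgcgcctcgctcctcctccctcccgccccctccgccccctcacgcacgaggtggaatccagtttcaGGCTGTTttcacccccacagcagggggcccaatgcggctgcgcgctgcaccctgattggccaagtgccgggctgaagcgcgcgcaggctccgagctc
Mov10l1: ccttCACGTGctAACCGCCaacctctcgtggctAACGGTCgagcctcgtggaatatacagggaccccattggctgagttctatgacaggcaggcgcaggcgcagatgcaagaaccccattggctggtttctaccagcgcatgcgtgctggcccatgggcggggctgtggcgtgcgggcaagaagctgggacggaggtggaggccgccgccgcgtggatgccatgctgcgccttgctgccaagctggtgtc
Henmt1: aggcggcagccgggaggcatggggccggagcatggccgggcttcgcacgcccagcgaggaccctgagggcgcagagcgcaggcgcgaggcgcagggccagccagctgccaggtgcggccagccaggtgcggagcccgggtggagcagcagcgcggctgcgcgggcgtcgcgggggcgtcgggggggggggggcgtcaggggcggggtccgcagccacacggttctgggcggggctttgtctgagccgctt
Piwil4: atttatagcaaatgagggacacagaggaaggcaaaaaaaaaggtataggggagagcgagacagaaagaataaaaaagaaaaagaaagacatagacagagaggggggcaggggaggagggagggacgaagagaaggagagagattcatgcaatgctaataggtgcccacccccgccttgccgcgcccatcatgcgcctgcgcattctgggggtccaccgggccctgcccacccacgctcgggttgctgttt
In Piwil1 the CACGTG copies began 179 and 154 bases before the start and the MYB cores 189, 75 and 66 bases before it. None of the capitals of the 2 motifs overlapped. The RefSeq start of Piwil1 lies 33722 bases downstream of the start of the deposited gene, while for 24 of the 26 promoters both starts were within 1000 bases of each other.

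Across all 33 genes no member was called differentially expressed by limma between control and cKO testes, and most shifted slightly downward. None was called DE (limma, Benjamini-Hochberg adjusted p below 0.05 and absolute log2 fold change above 1), where 0.0165% of the genes tested were called, and none had an adjusted p below 0.05 alone, where the share was also 0.0165%. An unadjusted p below 0.05 was reached by 4 members (12.1%), against 10.9% of all genes tested, a share near the background. All 4 were lower in the cKO libraries (Tdrd6, Exd1, Henmt1 and Piwil1), where 5.0% of all genes were lower at that p. The log2 fold change was below 0 in 25 of the 33 (75.8%), against 48.0% of all genes, and the median was -0.18 for the members and 0.01 for all genes. After rescaling to TPM these became 23 of the 33, 32.7% of all genes, -0.10 and 0.09, and 2 members (Exd1 and Tdrd6) had an unadjusted p below 0.05. Each member's 95% interval lay within -1 and 1 except that of Tdrd6, whose lower bound was -1.06, so a change of the pathway genes by more than 2-fold was outside the interval in the other 32.

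**Figure D2:**
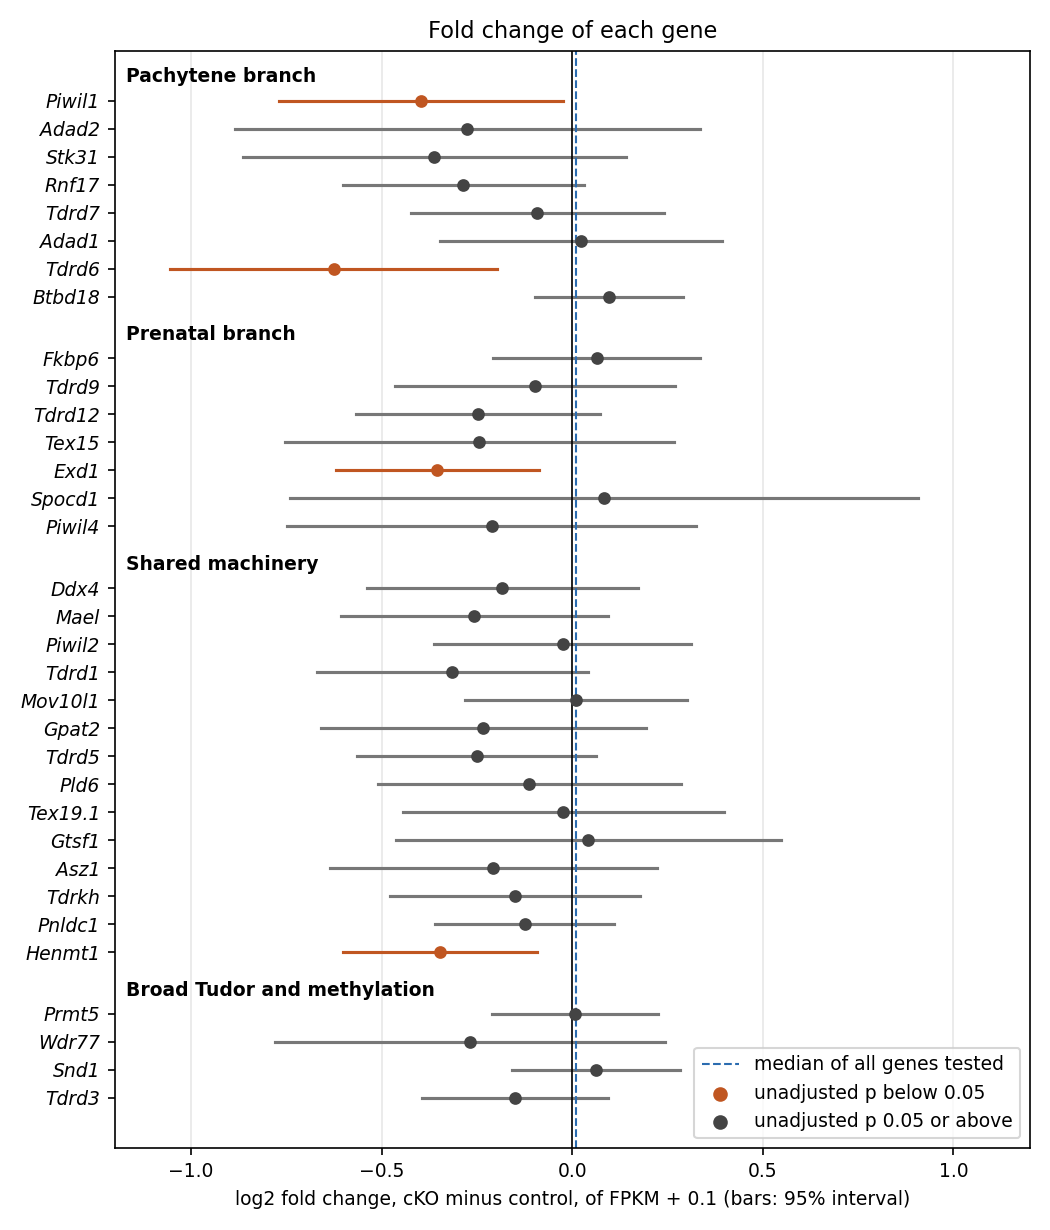
Log2 fold change of each of the 33 genes, cKO minus control, on the log2(FPKM + 0.1) scale, with 95% intervals from limma. The 4 members with an unadjusted p below 0.05 (Piwil1, Tdrd6, Exd1 and Henmt1) lie to the left of 0, and the dashed line marks the median of all genes tested at 0.01.

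The 3 PIWI genes differed in how they varied. Piwil1 (ENSMUSG00000029423, chromosome 5 of GRCm38, 128702524 to 128755474), whose protein MIWI is the main carrier of pachytene piRNAs, had 175, 198, 253 and 179.7 FPKM in the control libraries and 186, 157, 141 and 128 FPKM in the cKO libraries. cKO replicate 1 lay among the controls, and cKO replicates 2, 3 and 4 lay below every control. The log2 fold change was -0.40 (standard error, SE, 0.17, unadjusted p = 0.0387, adjusted p = 0.442 by limma), and without cKO replicate 4 its unadjusted p was 0.118.

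Piwil2 (ENSMUSG00000033644, chromosome 14, 70372477 to 70429383) encodes MILI, which serves in both the prenatal and the pachytene branch. It had 151, 146, 145 and 123 FPKM in the control libraries and 179, 125, 138 and 119 FPKM in the cKO libraries. The groups overlapped over most of their range, with cKO replicate 1 highest and cKO replicate 4 lowest of the 8. The log2 fold change of -0.02 (SE 0.15, adjusted p = 0.966 by limma) had a 95% interval of -0.36 to 0.31, and it turned to 0.05 after rescaling to TPM.

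Piwil4 (ENSMUSG00000036912, chromosome 9, 14696230 to 14740733), which encodes the nuclear PIWI protein MIWI2 of prenatal germ cells, was listed at 3.00, 4.25, 2.45 and 3.16 FPKM in the control libraries and at 1.80, 4.06, 2.66 and 2.76 FPKM in the cKO libraries. The replicates numbered 2 were high in both groups, and cKO replicate 1 was lowest. This gave a log2 fold change of -0.21 (SE 0.24, adjusted p = 0.806 by limma), which was -0.023 without cKO replicate 1 and -0.40 without cKO replicate 2. Within a library Piwil1 made up 58.0% ± 4.14 of the summed FPKM of the 3 PIWI genes in the controls and 51.7% ± 2.11 in the cKO libraries (SD, n = 4 each), and Piwil4 made up 0.944% ± 0.256 and 0.991% ± 0.387. The ratio of Piwil1 to Piwil2 was 1.16, 1.36, 1.74 and 1.46 in the controls and 1.04, 1.25, 1.02 and 1.08 in the cKO libraries, with cKO replicate 2 above control replicate 1. These shares were computed after the values were seen and are given without a test.

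**Figure D3:**
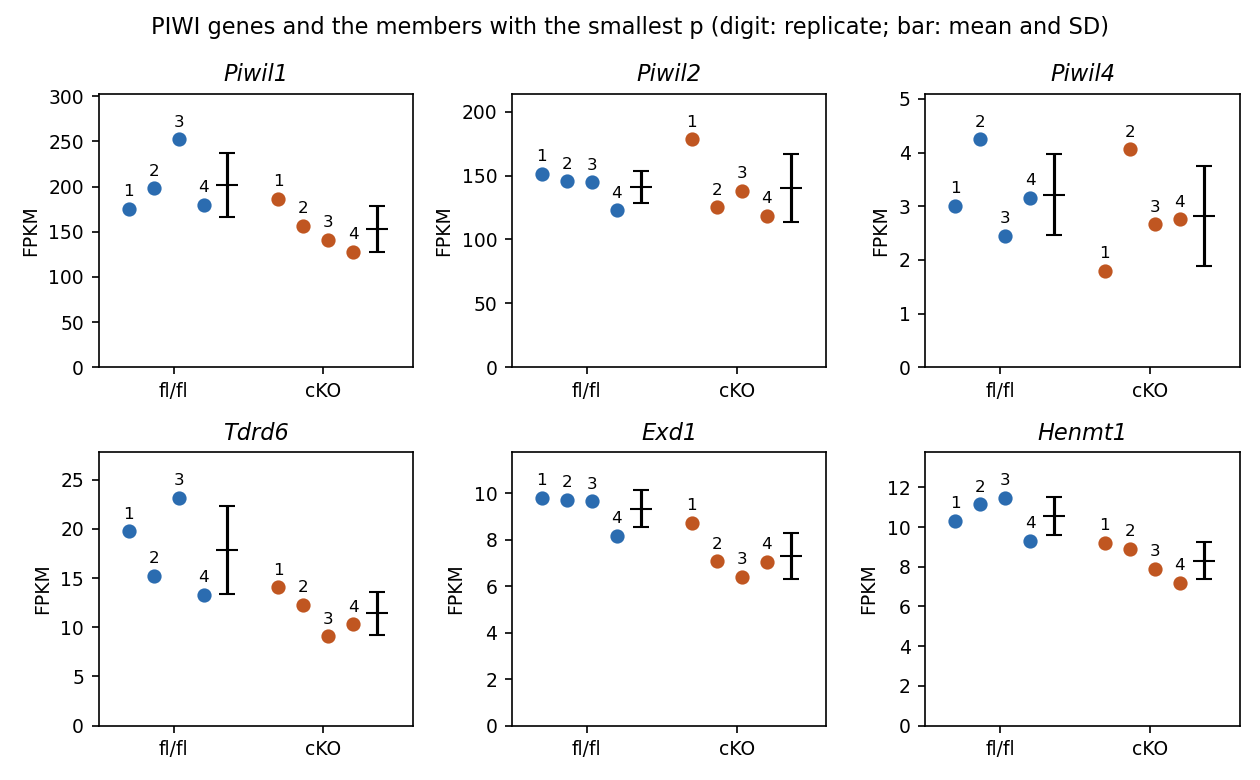
FPKM in each library for the 3 PIWI genes and for Tdrd6, Exd1 and Henmt1, with the replicate number beside each point and the mean and SD of each group as a bar to its right. Only for Henmt1 do the points of the groups not overlap, with cKO libraries up to 9.22 FPKM and controls from 9.31 FPKM.

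The pachytene branch had a median log2 fold change of -0.28 over 8 genes, of which 6 were below 0 and 2 (25.0%) had an unadjusted p below 0.05. Of all genes tested, 48.0% were below 0, 10.9% had such a p, and 5.0% had it with the cKO libraries lower. With 2 of 8 genes the branch is not set apart from that share. Without control replicate 1 this median was -0.12, above that of the prenatal branch in the same fit at -0.21, and it was -0.41 without cKO replicate 1. Tdrd6 (ENSMUSG00000040140, chromosome 17, 43615335 to 43630299), a multi-Tudor protein of the chromatoid body, had the largest difference of the 33. It was at 19.8, 15.2, 23.2 and 13.3 FPKM in the control libraries and 14.1, 12.3, 9.07 and 10.3 FPKM in the cKO libraries. Only control replicate 4 and cKO replicate 1 crossed. For Tdrd6 the log2 fold change was -0.63 (SE 0.19, unadjusted p = 0.00875, adjusted p = 0.287 by limma), and the unadjusted p ranged from 0.00266 to 0.0293 with each library left out in turn.

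Of the other pachytene genes, Rnf17, which keeps pachytene transcripts from being drawn into secondary piRNA production, had 49.8 ± 7.37 FPKM in the controls and 40.8 ± 6.21 FPKM in the cKO group (SD over 4 libraries each), for a log2 fold change of -0.29 (limma adjusted p = 0.520). Stk31, a kinase-like Tudor protein, and Adad2, an RNA-binding protein of germ cell granules, had log2 fold changes of -0.36 and -0.28, and both were spread widely among the controls, from 71.4 to 143 FPKM and from 66.6 to 175 FPKM. Control replicate 1 was the highest of the 8 libraries in both, and without it their log2 fold changes were -0.15 and -0.059. That of Stk31 was -0.51 without cKO replicate 1, and that of Adad2 was -0.52 without control replicate 4. Tdrd7, a chromatoid body protein, had a log2 fold change of -0.09, and Adad1, an RNA-binding protein related to Adad2, one of 0.02 (limma adjusted p = 0.867 and 0.972), and that of Tdrd7 was -0.0055 without control replicate 1.

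Btbd18, a nuclear factor for transcription of pachytene piRNA precursors, was the least abundant member of this branch and the steadiest of the 33 in the cKO group. Its cKO spread of 2.55% of the mean was below the counting error of 5.27% at its lowest count. It had 7.81, 8.23, 8.56 and 7.68 FPKM in the control libraries and 8.90, 8.68, 8.38 and 8.55 FPKM in the cKO libraries. The cKO values lay at the upper end of the control range or above it, and the log2 fold change of 0.10 (SE 0.09, adjusted p = 0.752 by limma) was above 0 in every fit that left out 1 library.

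In the prenatal branch the median log2 fold change was -0.21. Of its 7 genes 5 were below 0, against 48.0% of all genes tested. An unadjusted p below 0.05 was reached by 1 (14.3%), against 10.9% of all genes. Without control replicate 2 or control replicate 3 this median was -0.077 or -0.091. Exd1 (ENSMUSG00000048647, chromosome 2, 119516505 to 119547627), an RNA-binding partner of Tdrd12 in secondary piRNA production, had 9.81, 9.73, 9.66 and 8.17 FPKM in the control libraries and 8.73, 7.07, 6.40 and 7.06 FPKM in the cKO libraries. Control replicate 4 lay below cKO replicate 1, and the other 3 controls lay above every cKO library. For Exd1 it was -0.35 on the log2 scale (SE 0.12, unadjusted p = 0.0142, adjusted p = 0.333 by limma). Without cKO replicate 3 its unadjusted p was 0.0514 by limma. With array weights, which give control replicate 1 a weight of 0.161, Exd1 was the single member with an adjusted p below 0.05, at 0.0385. In that fit 20.9% of all genes had an unadjusted p below 0.05.

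Fkbp6, a co-chaperone in piRNA loading and the most abundant gene of the prenatal branch, had 127, 119.5, 112 and 96.3 FPKM in the control libraries and 128, 114, 121 and 111 FPKM in the cKO libraries. The cKO libraries fell within the control range but for the highest of them, and the log2 fold change was 0.06 (SE 0.12, adjusted p = 0.888 by limma). Tdrd9, a helicase that acts with Piwil4, and Tdrd12, a Tudor helicase, were at 94.9 ± 15.8 and 39.9 ± 3.94 FPKM in the controls and at 88.8 ± 16.2 and 33.9 ± 6.77 FPKM in the cKO libraries (SD, n = 4 each). Their log2 fold changes of -0.10 and -0.25 had limma adjusted p of 0.874 and 0.588. That of Tdrd9 was -0.0098 without control replicate 1 and -0.21 without cKO replicate 1. The branch therefore joined 2 levels, with Fkbp6, Tdrd9, Tdrd12 and Tex15 above 10 FPKM and Exd1, Spocd1 and Piwil4 below it.

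Tex15 and Spocd1, which act with Piwil4 in transposon methylation, varied widely between libraries. Tex15 ranged from 15.4 to 37.2 FPKM in the controls and from 18.7 to 23.3 FPKM in the cKO libraries (log2 fold change -0.24, limma adjusted p = 0.762, and -0.038 without control replicate 3). Without control replicate 1 its log2 fold change was -0.46, with an unadjusted p of 0.0192 by limma. Spocd1 had 3.20, 7.27, 3.69 and 5.06 FPKM in the control libraries and 2.21, 7.77, 5.76 and 5.54 FPKM in the cKO libraries, high in the replicates numbered 2 and lowest in cKO replicate 1, as Piwil4 was. Its log2 fold change was 0.08 with a 95% interval of -0.74 to 0.91, the widest of the 33.

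The pachytene and prenatal branches did not separate by group. The median deviation of a branch, over its genes, from each gene's mean over the 8 libraries was taken per library on the log2 scale, and the prenatal value was subtracted from the pachytene value. This difference was 0.21, -0.0043, 0.11 and -0.18 in the control libraries and 0.09, -0.14, -0.08 and -0.28 in the cKO libraries, so that the groups overlapped. The mean was 0.03 ± 0.17 in the controls and -0.10 ± 0.15 in the cKO libraries (SD, n = 4 each). The gap between these means was smaller than the SD of either group, and no test was run on this score because its members were chosen with earlier results known.

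The shared machinery had a median log2 fold change of -0.17, with 12 of 14 genes below 0, against 48.0% of all genes tested. An unadjusted p below 0.05 was reached by 1 gene (7.14%), against 10.9% of all genes. The median was -0.10 without control replicate 1, -0.092 without cKO replicate 4 and -0.088 after rescaling to TPM, and it was -0.26 without control replicate 4 and -0.28 without cKO replicate 1. The gene at an unadjusted p below 0.05 was Henmt1 (ENSMUSG00000045662, chromosome 3, 108939873 to 108960774), the methyltransferase that methylates the finished end of a piRNA, and the least abundant of the shared genes. It had 10.3, 11.1, 11.5 and 9.31 FPKM in the control libraries and 9.22, 8.90, 7.89 and 7.20 FPKM in the cKO libraries. Every cKO library lay below every control, by a gap of less than 0.1 FPKM between the nearest pair. This gap is within the counting error of Henmt1, 5.53% of a value at its lowest count. The log2 fold change was -0.35 (SE 0.11, unadjusted p = 0.0128, adjusted p = 0.329 by limma). The exact two-sided permutation test over the 70 assignments of the libraries gave p = 0.0286, the smallest it can give. Groups of 4 that do not overlap always give this p, so it adds nothing to the lack of overlap. The same permutation test gave p = 0.0571 for Tdrd6 and for Exd1 and p = 0.0857 for Piwil1.

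Henmt1 was the 1 member of 33 (3.03%) whose groups did not overlap, where 6.24% of all genes tested did not overlap and 2.59% did not overlap with the cKO libraries lower. Neither count sets the members apart from the background. After rescaling to TPM the groups overlapped in Henmt1 and were apart in Tdrd6, lower in the cKO libraries, and in Fkbp6, higher in the cKO libraries. In that fit the groups were apart in 6.11% of all genes.

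Ddx4, the VASA helicase and the locus of the Cre cassette, was the most abundant of the 33. It had 259.5, 209.8, 231 and 200.5 FPKM in the control libraries and 252, 186, 192 and 169 FPKM in the cKO libraries. cKO replicates 2, 3 and 4 lay below every control and cKO replicate 1 near the top. On the log2 scale the difference was -0.18 (SE 0.16, adjusted p = 0.740 by limma), equal to the median of the members, and the part of the inserted cassette in it was not tested.

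No gene that acts on piRNA precursors passed the test. Mael, needed for pachytene precursors to be processed, had 215 ± 34.6 FPKM in the controls and 179.5 ± 21.4 FPKM in the cKO group (SD over 4 libraries each), for a log2 fold change of -0.26 (limma adjusted p = 0.612). Tdrd1, the scaffold bound by PIWIL2, had 125 ± 14.6 and 101 ± 20.6 FPKM, a log2 fold change of -0.31 (limma adjusted p = 0.532), and Tdrd5, which binds precursors, 49.6 ± 5.55 and 42.0 ± 7.29 FPKM, a log2 fold change of -0.25 (limma adjusted p = 0.572). Mov10l1, the helicase that feeds precursors into processing, was level at 93.8 ± 8.57 and 94.8 ± 13.4 FPKM, with a log2 fold change of 0.01 and a 95% interval of -0.28 to 0.30.

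On the mitochondrial surface act the endonuclease Pld6, which cuts intermediates, and the membrane proteins Gpat2 and Asz1. Their log2 fold changes were -0.11, -0.23 and -0.21 (limma adjusted p = 0.861, 0.719 and 0.758). Without control replicate 1 these were -0.023, -0.092 and -0.031. Without control replicate 4 they were -0.28 for Pld6 and -0.41 for Gpat2, and without cKO replicate 1 that of Asz1 was -0.33. Tdrkh, which tethers intermediates there, and Pnldc1, the exonuclease that trims them to length, had log2 fold changes of -0.15 and -0.12 (limma adjusted p = 0.771 and 0.733). That of Tdrkh was -0.042 without control replicate 1 and -0.26 without cKO replicate 1. Gtsf1, a cofactor of PIWI slicing, ranged from 16.9 to 37.0 FPKM in the controls and from 23.8 to 30.7 FPKM in the cKO libraries. Its log2 fold change of 0.04 became -0.19 without control replicate 1, which held its lowest value. Tex19.1, a guard against transposons with a paralogous neighbour, Tex19.2, had a log2 fold change of -0.02 (limma adjusted p = 0.973), uncertain insofar as the counting could divide reads between both.

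The 4 broad genes lay on both sides of 0, with a median log2 fold change of -0.07. Prmt5, the methyltransferase that makes the arginine marks read by Tudor domains, and the highest of these genes, had 28.3, 32.8, 31.6 and 27.0 FPKM in the control libraries and 29.8, 30.8, 31.2 and 28.2 FPKM in the cKO libraries. The cKO libraries lay inside the control range, and the log2 fold change was 0.01 (standard error 0.10, 95% interval -0.21 to 0.22). Tdrd3, a reader of methylated arginine on histones, had 6.90, 6.88, 8.44 and 8.24 FPKM in the control libraries and 7.52, 6.68, 6.65 and 6.46 FPKM in the cKO libraries, and its log2 fold change was -0.15 (SE 0.11, adjusted p = 0.675 by limma).

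Snd1, a Tudor nuclease-like protein, had a log2 fold change of 0.06 (limma adjusted p = 0.861). Wdr77, the partner of Prmt5, had 31.8 FPKM in control replicate 1 and 13.6 to 20.4 FPKM in the other 7 libraries. Its log2 fold change of -0.27 became -0.03 without control replicate 1 and -0.39 without control replicate 2. Wdr77 overlaps Atp5f1 on the opposite strand, at 50.3 FPKM on average, and the use of strand in counting is not given in the sources used here, so its level is uncertain. Another 16 members overlap annotated genes, none of them above 4.34 FPKM on average.

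The order of the libraries was shared by most members and did not follow the groups alone. cKO replicate 1 was the highest cKO library in 27 of the 33 genes and lay above the control mean in 20. Control replicate 4 was the lowest control in 23, cKO replicate 4 the lowest cKO library in 25, and both at once in 19. The median deviation over the 33 genes, on the log2 scale, was 0.15, 0.11, 0.14 and -0.12 in the control libraries and 0.15, -0.12, -0.13 and -0.25 in the cKO libraries. The libraries thus fell into 4 above their gene means, namely control replicates 1, 2 and 3 and cKO replicate 1, and 4 below.

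**Figure D4:**
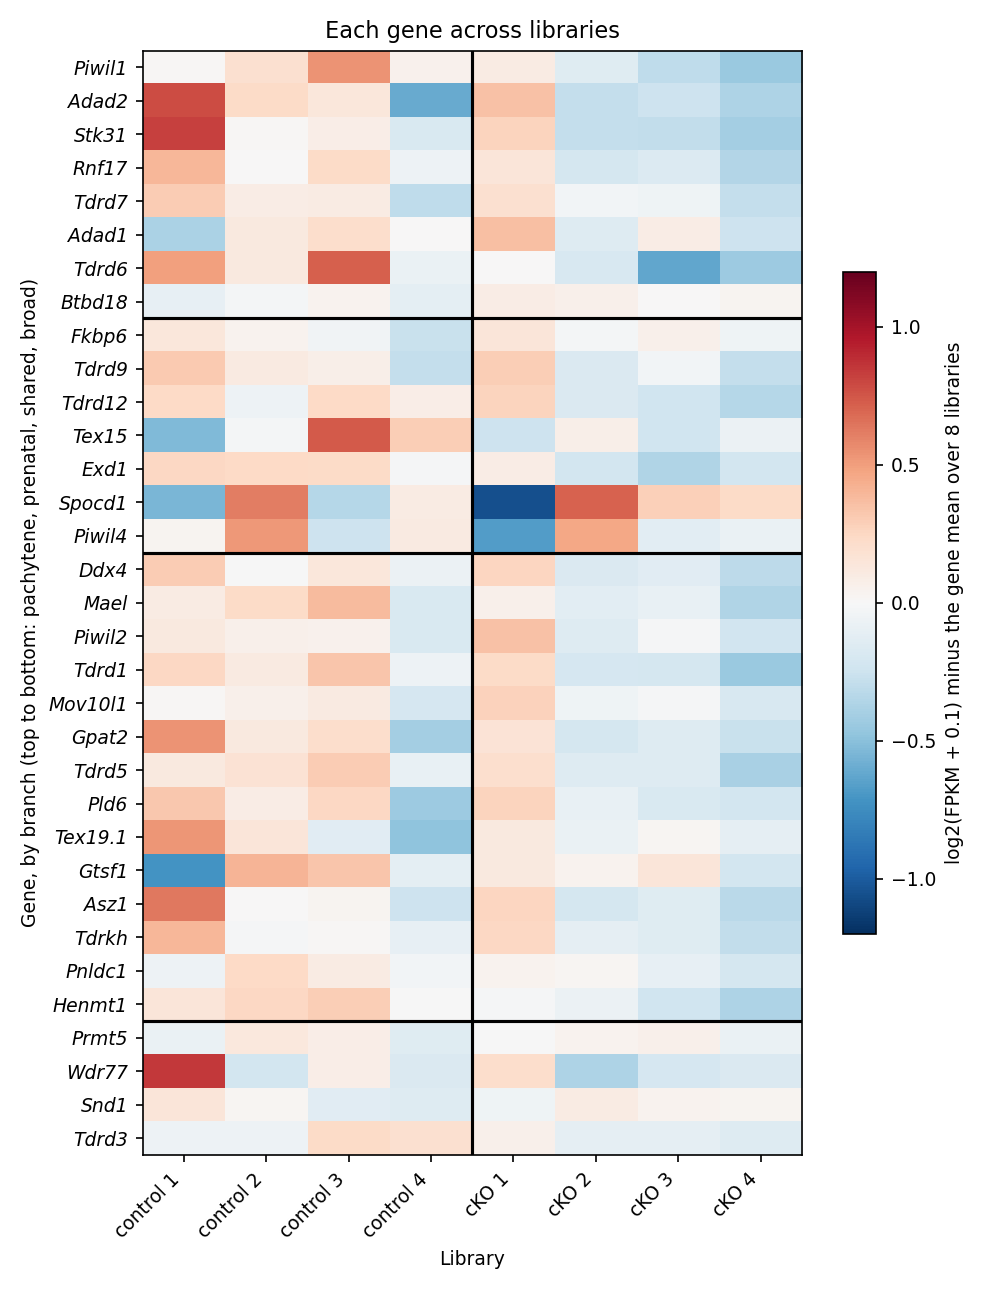
Deviation of log2(FPKM + 0.1) from its mean over the 8 libraries for each gene (rows, by branch) and library (columns), red above and blue below the mean. Most rows are red in control replicates 1 to 3 and cKO replicate 1 and blue in cKO replicates 2 to 4, while Piwil4 and Spocd1 are red in the replicates numbered 2.

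Single libraries moved the counts accordingly. Without cKO replicate 1 the groups did not overlap in 12 members (Ddx4, Exd1, Henmt1, Piwil1, Rnf17, Stk31, Tdrd1, Tdrd12, Tdrd3, Tdrd5, Tdrd6 and Tdrkh), where 15.4% of all genes did not overlap, and 9 had an unadjusted p below 0.05, where 12.8% of all genes did. Without control replicate 4 these counts were 4 and 10, with 13.5% and 15.0% of all genes. Without control replicate 1, the library of low mitochondrial share, 27 members were below 0 (42.8% of all genes), 5 had an unadjusted p below 0.05 (15.6% of all genes) and the median log2 fold change was -0.10. No member was called DE or had an adjusted p below 0.05 in any fit that left out 1 library. Tdrd6 and Henmt1 had an unadjusted p below 0.05 in all 8 of these fits, Exd1 in 7 and Piwil1 in 3.

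Among marker genes of testis cells, the pachytene markers had median deviations above and below 0 in the same libraries as the members. The somatic lists did not share a single order. In control replicate 4 the median deviation was 0.30 for endothelial and -0.18 for Sertoli genes. The 10 pachytene markers, of which 7 were tested, all had log2 fold changes below 0 where tested, against 48.0% of all genes. Of the 7, 2 had an unadjusted p below 0.05 (limma), against 10.9% of all genes. The summed level of the 10 markers was 913 to 1406 FPKM in the controls and 737 to 1154 FPKM in the cKO libraries. Over the 5 of these above 20 FPKM, the median deviation was lowest in cKO replicate 4, at -0.32, and -0.14 in control replicate 4, as for the members. Of the pachytene markers not tested, Hist1h1t and Spag6 had higher means in the cKO libraries (0.667 and 0.799 FPKM, against 0.279 and 0.579 FPKM). Ccna1 had a lower one (0.964 against 1.65 FPKM). The somatic markers tested went the other way from the pachytene markers tested, every one with a log2 fold change above 0. Those tested were 8 of 8 listed Sertoli, 2 of 5 Leydig, 3 of 4 peritubular, 4 of 4 endothelial and 4 of 4 macrophage genes. Of the somatic markers not tested, Cyp11a1 and Cyp17a1 had higher means in the cKO libraries (1.24 and 0.753 FPKM, against 0.766 and 0.499 FPKM). Tagln and Insl3 had lower ones (0.712 and 0.572 FPKM, against 0.855 and 0.576 FPKM). Summed levels, controls first, were 1185 to 1614 and 1550 to 1799 FPKM for Sertoli, 15.6 to 33.2 and 25.2 to 41.0 for Leydig, 43.9 to 74.1 and 73.0 to 103 for peritubular, 4.996 to 12.2 and 11.2 to 14.3 for endothelial, and 6.08 to 13.3 and 13.1 to 16.2 for macrophage genes. Single genes weighed heavily in 3 of these sums. Mean levels, controls first, were 823 and 1056 FPKM for Clu (Sertoli), 49.5 and 72.8 for Acta2 (peritubular), and 11.2 and 20.2 for Hsd3b1 (Leydig). An unadjusted p below 0.05 was reached by 0 of 8 Sertoli, 1 of 2 Leydig and 1 of 3 peritubular genes tested (limma). Among endothelial and macrophage genes 2 of 4 each reached it, against 10.9% of all genes. Spermatogonial markers were below 0 in 2 of 8 genes, against 48.0% of all genes, and summed to 186 to 238 and 223 to 236 FPKM. Stra8 was 1 of the 2, with 4.53 to 19.8 FPKM in the controls and 2.03 to 4.70 FPKM in the cKO libraries. Its log2 fold change was -1.46 (unadjusted p = 0.00735, adjusted p = 0.280 by limma). Of the 8 spermatid markers 6 were below 0.1 FPKM in at least 1 library, Tnp1 among them at 0 in 2 controls. The part of these differences in cell makeup in the shift of the members was not tested.

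**Figure D5:**
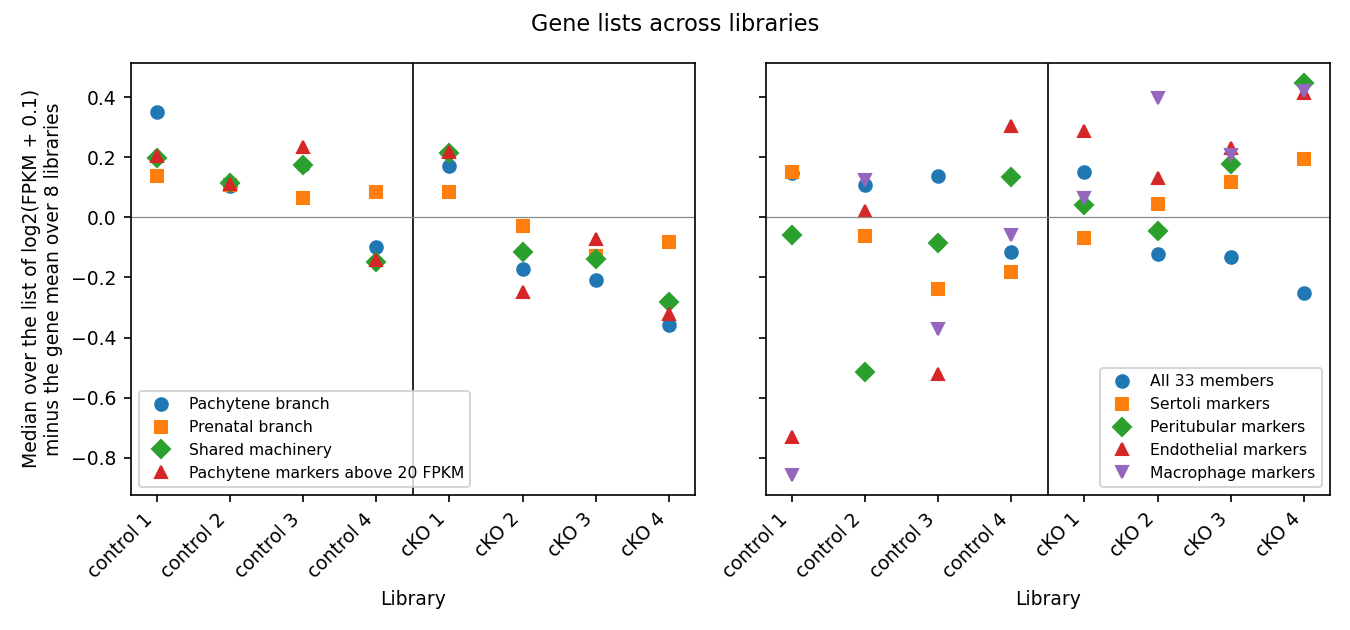
Median over a gene list of log2(FPKM + 0.1) minus each gene's mean over the 8 libraries, per library, for the branches and 5 pachytene markers (left) and for all 33 genes and somatic marker lists (right). The shared machinery and pachytene markers are below 0 in control replicate 4 and cKO replicates 2 to 4, and the endothelial and macrophage lists are lowest in control replicate 1.

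A list of 25 further genes, some linked to the pathway and some general RNA-binding or chaperone genes, did not share the downward median. Of the 25, 23 were in the table and 19 passed the filter. Of these 19, 9 were below and 10 above 0, with a median log2 fold change of 0.00. None had an unadjusted p below 0.05 (limma), against 10.9% of all genes tested. The median depends on the genes listed: log2 fold changes ran from -0.45 for Tcfl5 and -0.37 for Ddx25 to 0.24 for Mov10. Mybl1, the transcription factor of pachytene piRNA precursors, had 17.0 ± 1.75 FPKM in the controls and 14.0 ± 2.59 FPKM in the cKO group (SD over 4 libraries each), for a log2 fold change of -0.29 (limma adjusted p = 0.514). Tcfl5, which acts with it, had a log2 fold change of -0.45 (SE 0.30, adjusted p = 0.636 by limma) and ranged from 47.0 to 149.9 FPKM in the controls. The genes of the methylation arm that passed the filter, Dnmt3c and Morc1, had log2 fold changes of 0.20 and 0.19 (limma adjusted p = 0.735 and 0.762), while Nanos2 was at 0.418 FPKM or less in every library. Cnot7 was the 1 gene of these 19 (5.26%) without overlap between the groups, lower in the cKO libraries with a log2 fold change of -0.08 (limma adjusted p = 0.790). Of all genes tested, 6.24% did not overlap and 2.59% did not overlap with the cKO libraries lower, so this count is near the background.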

How the data were processed

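Total RNA of 8 whole testes was sequenced by the authors, 1 library per mouse. FPKM values of 54532 genes were deposited by the authors as 1 table and again as a file per library, with all 54532 rows equal. Builds named in the submitters' processing notes are GRCm38 and mm10. The aligner and counter are not given in the sources used here. Multiplying FPKM by gene length and dividing by the worth of 1 fragment gave whole numbers for 100% of nonzero values (tolerance 0.02), and so 13978342 to 19583091 fragments per library. The authors' scaling of libraries is part of the values.

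limma 3.58.1 in R 4.3.3 (lmFit, eBayes with trend) was run on log2(FPKM + 0.1), 4 libraries against 4, over the 12141 protein-coding genes whose mean exceeded 1 FPKM in each group, with Benjamini-Hochberg adjustment over all of them. Log2 fold changes on this scale understate those of low genes. The procedure was tested on simulated fragments, with changes larger than that of any member and the same noise in every library. That test does not show how well shifts as small as those of the members are found. Members and lists were chosen with earlier results of these data known. All members are accounted for. Values per library are given for the PIWI genes, Ddx4, and members with an unadjusted p below 0.05 or no overlap. They are also given for the highest and lowest member of each branch. The other member given per library (Spocd1) and the non-members named (Mybl1, Tcfl5, Ddx25, Mov10, Dnmt3c, Morc1, Nanos2, Cnot7) were chosen after their values were seen. Where labels do not state separate litters, p-values measure the spread between these mice. The least different pair of replicates differed by 4.36 times the sampling noise, so each library counts as 1 sample. Alternatives were other pseudocounts and filters, centring, TPM, each library left out, array weights, a replicate block, voom run on fragment counts recovered as above, and eBayes with no trend. Promoters came from RefSeq, GRCm38.p6. Figures were drawn with matplotlib.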

Additional observations from a re-analysis of the deposited data

Results flagged for a closer look

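In 3 of the 66 sets of 4 libraries (33 genes in 2 groups), 1 library lay far from the other 3 relative to the range of the set; chance flags about 1 in 20, or 3.3 of 66. Exd1 had 8.17 FPKM in control replicate 4 and 9.66 to 9.81 FPKM in the other controls. Stk31 had 97.9 FPKM in cKO replicate 1 and 61.2 to 66.6 FPKM in the other cKO libraries. Adad2 had 130.0 FPKM in cKO replicate 1 and 78.6 to 85.2 FPKM in the others.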

How the results depend on the processing

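Across 19 alternatives no member was called DE. The number at an unadjusted p below 0.05, 4 in the reported fit, was 2 after rescaling to TPM, 7 with a replicate block and 11 with array weights, where 10.6%, 14.6% and 20.9% of all genes reached that p (10.9% in the reported fit), and 2 to 10 with each library left out (2 without cKO replicate 3, 10 without control replicate 4). Without cKO replicate 3 and without control replicate 4, 6.57% and 15.0% of all genes reached that p. One member (Exd1) had an adjusted p below 0.05 with array weights, and 0 in every other fit. The share of all genes at that adjusted p with array weights is not reported here. The number whose groups did not overlap, 1 in the reported fit, was 2 after rescaling to TPM and 1 to 12 with each library left out (12 without cKO replicate 1). Of all genes, 6.24% did not overlap in the reported fit, 6.11% after rescaling to TPM and 7.1% to 15.4% with each library left out. The median log2 fold change of the prenatal branch, -0.21, was -0.14 after rescaling to TPM and -0.077 to -0.231 with each library left out. With each library left out, the median ranged from -0.12 (without control replicate 1) to -0.41 (without cKO replicate 1) for the pachytene branch and from -0.092 (without cKO replicate 4) to -0.28 (without cKO replicate 1) for the shared machinery. Rescaling to TPM moved the median of all genes from 0.01 to 0.09 and that of the members from -0.18 to -0.10.

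Of 625 fold changes of single genes, 26 changed sign, in 8 genes near 0. After rescaling to TPM, Piwil2 was at 0.0540 and Tex19.1 at 0.0551. With array weights, Mov10l1 was at -0.0670, Gtsf1 at -0.19, Adad1 at -0.12 and Prmt5 at -0.0336. With each library left out, log2 fold changes ranged from -0.147 to 0.0491 for Piwil2, -0.19 to 0.15 for Tex19.1, -0.0811 to 0.0762 for Mov10l1, -0.19 to 0.19 for Gtsf1, -0.10 to 0.11 for Adad1, -0.0413 to 0.0517 for Prmt5, -0.14 to 0.45 for Spocd1 and -0.0141 to 0.120 for Fkbp6. The cause was not tested. Same-numbered libraries deviated together with correlations of 0.288, 0.131, 0.0757 and 0.406, 1 of them under 0.1, so libraries were not treated as pairs, and not every library correlated best with its own number. At this depth counting error was small beside the spread between mice; 4 mice a group limit what can be seen. With a filter of 5 FPKM, 31 members remained.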
